A study of Homo sapiens with 8 samples.

Results

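Messenger RNA of 10 cell cycle transcription factors, the 8 E2F genes E2F1 to E2F8 together with FOXM1 and MYBL2, was followed in human LN229 glioblastoma cells before and after temozolomide (TMZ), a DNA-methylating drug used in glioma therapy. The genes were taken by symbol from a table of RNA sequencing read counts, in which all 10 were among the 26364 genes listed, and all 10 passed the filter on low counts. The rule used symbols and no measured value, although the set was drawn up with earlier results of these data known. The study asked how survivin, the BIRC5 product, acts from the cytoplasm or the nucleus when its export is blocked. LN229 cells, which are proficient for p53 and p21 and lack MGMT, carried a survivin-eGFP transgene in every sample. In Surv-GFP cells the nuclear export signal was functional, and the fusion protein was labelled as mainly cytoplasmic. In SurvNESmut-GFP cells the signal carried L96A and L98A, counted along the survivin protein, and the fusion was labelled as mainly nuclear. The TMZ groups of both clones received a concentration of 50 µM over 48 h and the other groups no drug, and each of the 4 groups held 2 libraries, named replicate a and replicate b. Each construct was represented by a single G418-selected clone, so construct and clone cannot be told apart, and parental cells were not analysed here.

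E2F factors bind promoters of genes for DNA replication and the cell cycle. E2F1, E2F2 and E2F3 are known as activators that are held in check by the retinoblastoma protein RB1, E2F4 and E2F5 act mostly as repressors with the pocket proteins RBL1 and RBL2, and E2F6, E2F7 and E2F8 repress without pocket proteins. MYBL2, also called B-MYB, joins the MuvB core during S phase, and FOXM1, a forkhead factor, joins it later, and both then drive genes for mitosis. When p53 raises p21, the product of CDKN1A, the same MuvB core with E2F4 or E2F5 and RBL1 or RBL2 forms the repressive DREAM complex. E2F7 is itself a known p53 target. In bulk RNA, a change of level in every cell and a change in the share of cells in a cell cycle phase cannot be told apart.

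Between 15826923 and 18861603 reads per library fell on genes, and 14201 genes were tested. The biological coefficient of variation over replicates was 4.09%. The 2 SurvNESmut-GFP TMZ libraries differed more from each other than those of the other groups, with a chi-square per degree of freedom of 5.74 against at most 2.66, and reads without a gene were most frequent in replicate a of that group (14.3% against 11.2% to 12.8% in the other libraries). Values without either library are given where they change a call of the E2F genes, FOXM1 or MYBL2. For the other genes named below, only some of such values are given. As a check of the exposure, CDKN1A was at 77.3 and 86.6 CPM (read counts scaled to a common library size with TMM) in untreated Surv-GFP libraries and at 908 and 975 after TMZ, against 117 and 119 and then 429 and 492 in SurvNESmut-GFP libraries. BIRC5, which sums the endogenous gene and the transgene, was at 1113 and 1152 CPM in untreated Surv-GFP libraries and at 407 and 414 in untreated SurvNESmut-GFP libraries. TMZ raised it in Surv-GFP cells, to 1938 and 2029 CPM, and lowered it in SurvNESmut-GFP cells, to 253 and 262 CPM. The part of these shifts in the results below was not tested. The glial and glioma genes NES, VIM, CD44, SOX2, S100B and OLIG2 were detected in every group, but some differed widely between the clones. Untreated Surv-GFP and SurvNESmut-GFP cells had mean levels of 777 and 40.6 CPM for S100B, 34.0 and 6.94 for OLIG2 and 90.7 and 34.4 for SOX2. Across the 4 groups GFAP, an astrocyte marker, stayed below 1 CPM (0.0535 to 0.626 CPM as group means). Of the markers of other cell types, PTPRC, CD3E, PECAM1, EPCAM and ALB were at or near 0 in all groups, at most 0.357 CPM, and the fibroblast marker COL1A1 was at 6.32 and 3.59 CPM in Surv-GFP cells without and with TMZ and at 42.5 and 31.5 in SurvNESmut-GFP cells. The part of these marker differences in the clone comparisons was not tested.

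To show what lies upstream of these genes, promoters of RefSeq (GRCh38.p14; 250 bases before to 50 after the start, written in the direction of the gene) were searched on both strands. Promoters of 7 of the 10 genes were searched, 8 in all, as E2F3 has 2, and E2F5, E2F8 and FOXM1 were not part of this search. The E2F motif was searched as TTTCCCGC, TTTCGCGC, TTTGCCGC or TTTGGCGC, and the CHR motif, which MuvB binds, as TTTGAA or TTCGAA. Capitals mark these 2 motifs in the promoters of the activators E2F1, E2F2 and E2F3, shown because all 3 hold an E2F motif, and of E2F7, shown because it had the widest span of levels among the 10 genes. The lines give E2F1 at chr20:33686336-33686635 (minus strand), E2F2 at chr1:23531184-23531483 (minus strand), the first E2F3 promoter at chr6:20401629-20401928 (plus strand) and E2F7 at chr12:77065520-77065819 (minus strand).
E2F1: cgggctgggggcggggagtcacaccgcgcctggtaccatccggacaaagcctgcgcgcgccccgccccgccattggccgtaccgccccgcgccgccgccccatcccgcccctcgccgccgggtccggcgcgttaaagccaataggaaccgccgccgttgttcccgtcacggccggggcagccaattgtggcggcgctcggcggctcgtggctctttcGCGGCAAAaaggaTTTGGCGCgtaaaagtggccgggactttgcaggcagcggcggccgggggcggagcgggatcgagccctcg
E2F2: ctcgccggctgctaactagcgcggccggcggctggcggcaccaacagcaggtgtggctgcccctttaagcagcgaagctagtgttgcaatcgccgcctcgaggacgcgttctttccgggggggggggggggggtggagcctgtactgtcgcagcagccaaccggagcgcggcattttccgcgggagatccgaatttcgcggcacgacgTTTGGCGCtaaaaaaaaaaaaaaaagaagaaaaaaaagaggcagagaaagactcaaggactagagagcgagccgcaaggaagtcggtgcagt
E2F3: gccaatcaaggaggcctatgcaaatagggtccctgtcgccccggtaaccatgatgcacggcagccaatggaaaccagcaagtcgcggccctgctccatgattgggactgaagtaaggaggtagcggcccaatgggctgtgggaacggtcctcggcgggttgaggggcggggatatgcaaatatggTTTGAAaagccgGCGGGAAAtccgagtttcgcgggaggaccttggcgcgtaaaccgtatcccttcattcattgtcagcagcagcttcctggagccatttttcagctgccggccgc
E2F7: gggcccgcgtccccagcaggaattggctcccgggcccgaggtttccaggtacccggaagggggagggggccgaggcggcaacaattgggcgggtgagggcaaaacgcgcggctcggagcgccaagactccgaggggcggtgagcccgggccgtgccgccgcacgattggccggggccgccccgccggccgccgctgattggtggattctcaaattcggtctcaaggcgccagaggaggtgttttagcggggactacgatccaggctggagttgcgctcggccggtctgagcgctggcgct

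An E2F motif was present in 3 of the 8 promoters, against 3.31% of all 35116 promoters in the table. E2F1 held 2, from base -33 to -26 and from -20 to -13 relative to the start, which did not overlap. E2F2 held 1 from -42 to -35, and E2F3 held 1 from -53 to -46 beside a CHR motif from -65 to -60. The CCAAT motif, which NF-Y binds, was present in 3 of the 8 promoters, with 4 copies in E2F7, 4 in the first E2F3 promoter and 3 in E2F1, and in 34.6% of all promoters. None of the 8 held the forkhead letters ATAAACA or GTAAACA, present in 7.43% of all promoters, and only the E2F3 promoter held a CHR motif, present in 16.4%. The promoters of E2F4, E2F6 and MYBL2 held neither the E2F nor the CHR letters in this window. A match describes letters and not a bound site, and sites with other letters were not searched, so an absent match does not show that a site is absent.

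Levels were compared between genes only as CPM per kilobase of exon, with lengths from the GENCODE 29 annotation. MYBL2 was highest in untreated Surv-GFP cells at 57.9 ± 0.832 CPM per kb (SD, n = 2), before FOXM1 at 39.2 ± 2.35, E2F1 at 30.95 ± 1.21 and E2F4 at 24.8 ± 0.575. Then came E2F3 at 9.25 ± 0.359, E2F8 at 7.17 ± 0.532, E2F7 at 6.21 ± 0.0250, E2F6 at 5.68 ± 0.297 and E2F2 at 5.65 ± 0.307, and E2F5 was lowest at 2.02 ± 0.104. E2F6 and E2F2 differed by less than the spread between replicates, while the libraries of the other neighbours did not overlap. With the longest transcript as the length, E2F4, at 34.0 CPM per kb, lay above E2F1, at 30.95, in this group. Over the mean of all 4 groups both lengths gave the same order, from MYBL2 and FOXM1 through E2F1, E2F4, E2F7, E2F3, E2F6, E2F8 and E2F2 to E2F5. E2F7 was in the seventh place in untreated Surv-GFP cells and in the fifth in the other 3 groups.

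**Figure D1:**
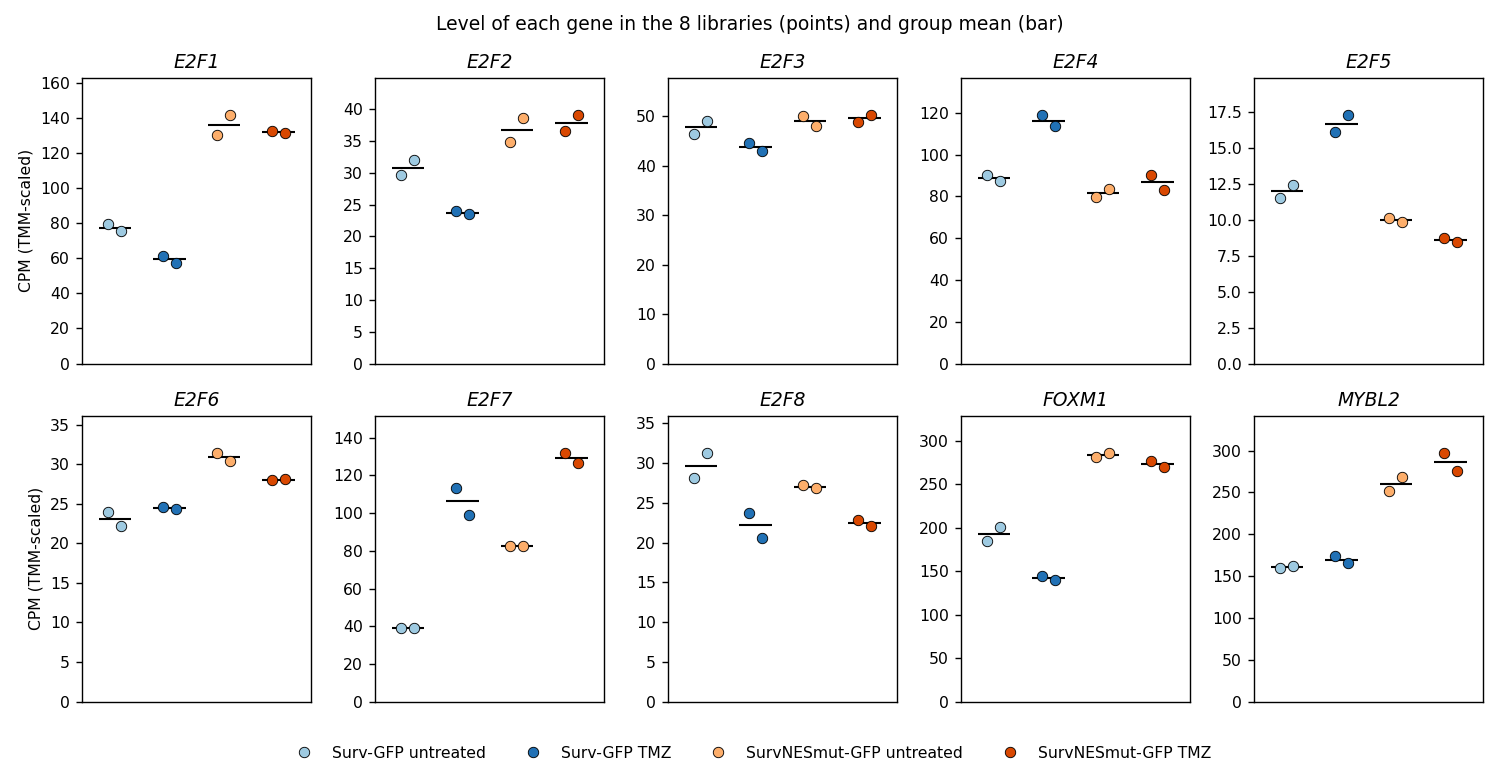
Level of each of the 10 genes in CPM (vertical axis, from 0) in the 8 libraries, with 1 point per library and a bar at the mean of the 2 libraries of a group; colours mark the 4 groups. MYBL2 lay between 159 and 174 CPM in the Surv-GFP libraries and between 251 and 297 in the SurvNESmut-GFP libraries, and E2F7 was lowest in the 2 untreated Surv-GFP libraries, at 39.0 and 39.2 CPM.

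In Surv-GFP cells, TMZ raised E2F7, E2F5 and E2F4 and lowered E2F1, E2F2, E2F8 and FOXM1. These were 3 of 10 genes higher, beside 30.1% of all tested genes, and 4 of 10 lower, beside 28.9% of all tested genes. In SurvNESmut-GFP cells E2F7 alone of the 10 rose (background 18.6% of tested genes higher) and E2F8 alone fell (background 19.1% lower). Without SurvNESmut-GFP TMZ replicate b the 1 that rose became 3 and the 1 that fell became 0, which it also was without either untreated library of that clone. All calls used an adjusted p below 0.05 in edgeR's quasi-likelihood F test with Benjamini-Hochberg adjustment over all genes tested. The 2 TMZ effects differed for 6 of the 10 genes, in a direct test of the difference. For E2F1, E2F2 and FOXM1 the effect was higher in SurvNESmut-GFP cells (3 of 10, background 16.6%), and for E2F4, E2F5 and E2F7 it was lower (3 of 10, background 20.2%).

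Comparing the clones without TMZ, 6 of the 10 genes, E2F1, E2F2, E2F6, E2F7, FOXM1 and MYBL2, were higher in SurvNESmut-GFP cells, where 34.7% of all tested genes were higher. E2F5 was lower, where 29.4% were lower, and this 1 gene became 0 without any 1 untreated library and 2 without any 1 TMZ library. After TMZ, 7 genes were higher in SurvNESmut-GFP cells, the same 6 and E2F3 (background 34.5%), and E2F4 and E2F5 were lower (background 34.7%). The comparisons share libraries with each other, since each group enters more than 1 of them. The median log2 fold change over all tested genes lay between -0.00103 and 0.0336 in the 5 comparisons.

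**Figure D2:**
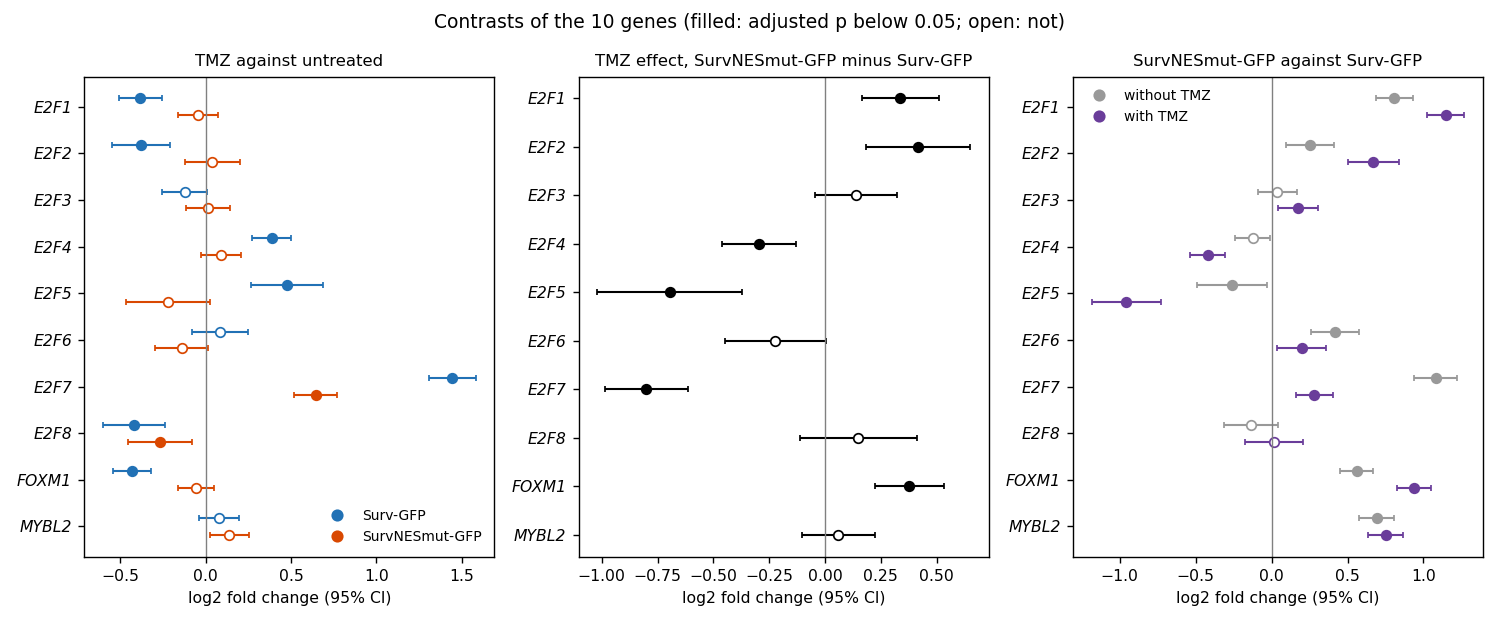
Log2 fold changes (horizontal axis) of the 10 genes with 95% confidence intervals as bars, for TMZ against untreated in each clone (left), for the difference of these effects (middle) and for SurvNESmut-GFP against Surv-GFP without and with TMZ (right); filled points had an adjusted p below 0.05. In the middle panel E2F1, E2F2 and FOXM1 lay above 0, and E2F4, E2F5 and E2F7 below it.

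E2F1, the first activator, was at 79.6 and 75.3 CPM in the untreated Surv-GFP libraries and at 61.5 and 57.4 after TMZ. In SurvNESmut-GFP cells it was at 129.97 and 141 CPM untreated and at 132 and 131 after TMZ. The TMZ libraries were lower in Surv-GFP cells without overlap, whereas those of SurvNESmut-GFP cells lay within the range of their untreated libraries. E2F1 fell by 0.38 on the log2 scale in Surv-GFP cells (SE 0.06, adjusted p = 4.23e-05), and its change in SurvNESmut-GFP cells was -0.04 (95% CI -0.16 to 0.07, adjusted p = 0.573). The effects differed by 0.34 (SE 0.08, adjusted p = 0.00379). E2F1 was 1.75-fold higher in SurvNESmut-GFP cells without TMZ (adjusted p = 2.43e-09) and 2.21-fold higher with TMZ (adjusted p = 4.17e-11).

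E2F2, an activator of the same class, was at 29.6 and 32.0 CPM in untreated Surv-GFP libraries and at 24.0 and 23.5 after TMZ, and at 34.8 and 38.7 CPM and then 36.5 and 39.1 in SurvNESmut-GFP libraries. Like E2F1 it fell in Surv-GFP cells, by 0.38 on the log2 scale (SE 0.08, adjusted p = 0.000741), with overlapping libraries in SurvNESmut-GFP cells (log2 fold change 0.04, 95% CI -0.12 to 0.20, adjusted p = 0.704). The effects of TMZ differed by 0.42 (SE 0.11, adjusted p = 0.00715). The clones differed by 0.67 after TMZ (adjusted p = 1.26e-06). Without TMZ the difference was 0.25 (adjusted p = 0.00804), with an adjusted p of 0.0909 without Surv-GFP untreated replicate a and of 0.113 without SurvNESmut-GFP untreated replicate b.

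E2F3, the remaining activator, varied least of the 10 genes, with a span of its group means of 0.18 on the log2 scale. Its level was 46.4 and 49.1 CPM in untreated Surv-GFP cells, 44.7 and 43.0 after TMZ, 50.0 and 48.1 in untreated SurvNESmut-GFP cells and 48.9 and 50.2 after TMZ. The Surv-GFP libraries did not overlap, but the log2 fold change of -0.12 (95% CI -0.25 to 0.01) had an adjusted p of 0.0990, and in SurvNESmut-GFP cells it was 0.02 (adjusted p = 0.867). E2F3 was higher in SurvNESmut-GFP cells after TMZ by 0.18 (SE 0.06, adjusted p = 0.0185). This call was lost without any 1 of the 4 TMZ libraries, with adjusted p of 0.0776 without Surv-GFP TMZ replicate a, 0.119 without Surv-GFP TMZ replicate b, 0.0694 without SurvNESmut-GFP TMZ replicate a and 0.152 without SurvNESmut-GFP TMZ replicate b.

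E2F4, the most abundant of the pocket protein-bound repressors, was at 90.4 and 87.5 CPM in untreated Surv-GFP cells and at 119 and 114 after TMZ, against 79.5 and 83.5 and then 90.4 and 83.2 CPM in SurvNESmut-GFP cells. The 2 Surv-GFP libraries with TMZ were the highest of all 8, and the SurvNESmut-GFP groups overlapped. E2F4 rose 1.31-fold in Surv-GFP cells (log2 0.39, SE 0.05, adjusted p = 1.26e-05), and the log2 fold change in SurvNESmut-GFP cells was 0.09 (95% CI -0.03 to 0.21, adjusted p = 0.222). The difference between the effects was -0.30 (SE 0.08, adjusted p = 0.00729). Without SurvNESmut-GFP TMZ replicate b the change in SurvNESmut-GFP cells was 0.15 with an adjusted p of 0.0484. After TMZ E2F4 was lower in SurvNESmut-GFP cells by 0.42 on the log2 scale (adjusted p = 3.72e-06), and without TMZ the difference was -0.13 (adjusted p = 0.0591). The latter passed the threshold when any 1 of the 4 TMZ libraries was omitted, with adjusted p of 0.0243 without Surv-GFP TMZ replicate a, 0.0266 without Surv-GFP TMZ replicate b, 0.00594 without SurvNESmut-GFP TMZ replicate a and 0.00566 without SurvNESmut-GFP TMZ replicate b.

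E2F5, the relative of E2F4, was the least abundant of the 10 genes, and its TMZ effects had opposite signs in the 2 clones. Its level was 11.5 and 12.4 CPM in untreated Surv-GFP cells, 16.1 and 17.3 after TMZ, 10.1 and 9.83 in untreated SurvNESmut-GFP cells and 8.71 and 8.45 after TMZ, from 134 to 301 reads per library. TMZ raised E2F5 in Surv-GFP cells 1.39-fold (log2 0.48, SE 0.10, adjusted p = 0.000598), and in SurvNESmut-GFP cells the libraries were lower without overlap but the log2 fold change of -0.22 (95% CI -0.47 to 0.03) had an adjusted p of 0.153. The difference of the effects, -0.70 (SE 0.15, adjusted p = 0.00200), was second in size to that of E2F7. After TMZ the level in SurvNESmut-GFP cells was 0.515 times that in Surv-GFP cells (adjusted p = 6.64e-07). Without TMZ it was lower by 0.26 on the log2 scale (adjusted p = 0.0433), a call that was lost without any 1 untreated library, with adjusted p of 0.0611 and 0.212 without Surv-GFP replicate a or b and of 0.0957 and 0.153 without SurvNESmut-GFP replicate a or b. In the annotation, 16.4% of the exon length of E2F5 overlaps C8orf59 on the other strand, and the strand setting of the counting is not known.

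E2F6, a repressor that works with Polycomb proteins, was at 24.0 and 22.2 CPM in untreated Surv-GFP cells and at 24.5 and 24.4 after TMZ. It was at 31.4 and 30.4 CPM in untreated SurvNESmut-GFP cells and at 28.0 and 28.1 after TMZ. TMZ changed it in neither clone past the threshold (log2 fold change 0.08, adjusted p = 0.375, and -0.14, adjusted p = 0.152), and the difference of the effects was -0.22 (95% CI -0.45 to 0.00392, adjusted p = 0.117). It was higher in SurvNESmut-GFP cells without TMZ by 0.42 (SE 0.07, adjusted p = 0.000116). After TMZ the difference was 0.20 (adjusted p = 0.0298), and the call was lost without any 1 of the 4 TMZ libraries, with adjusted p of 0.152 without Surv-GFP TMZ replicate a, 0.0974 without Surv-GFP TMZ replicate b, 0.137 without SurvNESmut-GFP TMZ replicate a and 0.136 without SurvNESmut-GFP TMZ replicate b.

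E2F7, an atypical repressor, had the widest span of group means of the 10 genes. It was at 39.0 and 39.2 CPM in untreated Surv-GFP cells and at 114 and 99.2 after TMZ, and at 82.8 in both untreated SurvNESmut-GFP libraries and at 132 and 127 after TMZ. The untreated SurvNESmut-GFP level thus lay between the untreated and the TMZ level of Surv-GFP cells, and no pair of groups overlapped. The rise was 2.72-fold in Surv-GFP cells (log2 1.44, SE 0.06, adjusted p = 1.40e-11) and 1.56-fold in SurvNESmut-GFP cells (log2 0.64, SE 0.06, adjusted p = 3.76e-07). The second was smaller by 0.80 on the log2 scale (95% CI -0.99 to -0.61, adjusted p = 3.28e-06). Of all tested genes, 5.65% had a larger absolute log2 fold change than E2F7 with TMZ in Surv-GFP cells, and 12.2% in SurvNESmut-GFP cells. E2F7 was 2.12-fold higher in SurvNESmut-GFP cells without TMZ (adjusted p = 4.65e-10) and 1.22-fold higher with it (adjusted p = 0.000428).

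E2F8, the other atypical repressor, moved the opposite way to E2F7. It was at 28.1 and 31.2 CPM in untreated Surv-GFP cells and at 23.7 and 20.6 after TMZ, and at 27.2 and 26.8 CPM and then 22.8 and 22.1 in SurvNESmut-GFP cells. All 4 TMZ libraries were below all 4 untreated ones. E2F8 fell by 0.42 on the log2 scale in Surv-GFP cells (SE 0.09, adjusted p = 0.000529) and by 0.27 in SurvNESmut-GFP cells (SE 0.09, adjusted p = 0.0242). The second call was lost without SurvNESmut-GFP untreated replicate a (adjusted p = 0.107), without SurvNESmut-GFP untreated replicate b (adjusted p = 0.0833) and without SurvNESmut-GFP TMZ replicate b (adjusted p = 0.0663). The difference of the effects was 0.15 (95% CI -0.11 to 0.41, adjusted p = 0.374), and the clones differed by -0.13 without TMZ (adjusted p = 0.171) and by 0.01 with it (adjusted p = 0.892).

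FOXM1 was at 184 and 200.4 CPM in untreated Surv-GFP cells and at 145 and 140.3 after TMZ, and at 281 and 286 CPM and then 276 and 269.5 in SurvNESmut-GFP cells. In Surv-GFP cells it fell by 0.43 on the log2 scale (SE 0.05, adjusted p = 2.45e-06). In SurvNESmut-GFP cells both TMZ libraries were below both untreated ones, but the log2 fold change of -0.05 (95% CI -0.16 to 0.05) had an adjusted p of 0.424. The effects differed by 0.38 (SE 0.07, adjusted p = 0.000707). FOXM1 was 1.47-fold higher in SurvNESmut-GFP cells without TMZ (adjusted p = 6.76e-08) and 1.92-fold higher with TMZ (adjusted p = 1.21e-10). In the annotation 15.9% of its exon length overlaps ITFG2 on the other strand.

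MYBL2 was at 159 and 162 CPM in untreated Surv-GFP cells, at 174 and 165 after TMZ, at 251 and 269 in untreated SurvNESmut-GFP cells and at 297 and 276 after TMZ. The TMZ libraries were above the untreated ones in both clones, by a log2 fold change of 0.08 in Surv-GFP cells (95% CI -0.04 to 0.20, adjusted p = 0.231) and of 0.14 in SurvNESmut-GFP cells (95% CI 0.03 to 0.25, adjusted p = 0.0509). Without SurvNESmut-GFP TMZ replicate b the second was 0.20 with an adjusted p of 0.00484. The difference of the effects was 0.06 (95% CI -0.10 to 0.22, adjusted p = 0.588). Between the clones MYBL2 was 1.62-fold higher in SurvNESmut-GFP cells without TMZ (adjusted p = 1.05e-08) and 1.69-fold higher with TMZ (adjusted p = 3.10e-09).

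The makeup of E2F mRNA was described as the share of each gene in the summed CPM per kb of E2F1 to E2F8. The activators E2F1, E2F2 and E2F3 together made up 50.0% ± 0.180 (SD, n = 2) in untreated Surv-GFP cells and 36.6% ± 0.178 after TMZ, and 57.7% ± 0.968 and 54.2% ± 0.967 in SurvNESmut-GFP cells. E2F4 made up 27.1% ± 0.405 and then 32.4% ± 0.447 in Surv-GFP cells, and after TMZ its share lay above that of E2F1, at 23.7% ± 0.0984. With the longest transcript as the length, E2F4 was above E2F1 in Surv-GFP cells already without TMZ (34.0 against 30.95 CPM per kb). In SurvNESmut-GFP cells E2F1 was largest at 44.4% ± 1.21 and 41.2% ± 0.373, with E2F4 at 18.6% ± 0.0327 and 18.97% ± 0.823. The atypical E2F7 and E2F8 together went from 14.6% ± 0.726 to 22.2% ± 1.14 in Surv-GFP cells and from 16.1% ± 0.580 to 20.3% ± 0.232 in SurvNESmut-GFP cells, all through E2F7, which went from 6.77% to 16.8% and from 10.8% to 16.1%. These shares depend on the exon lengths used and carry no test.

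**Figure D3:**
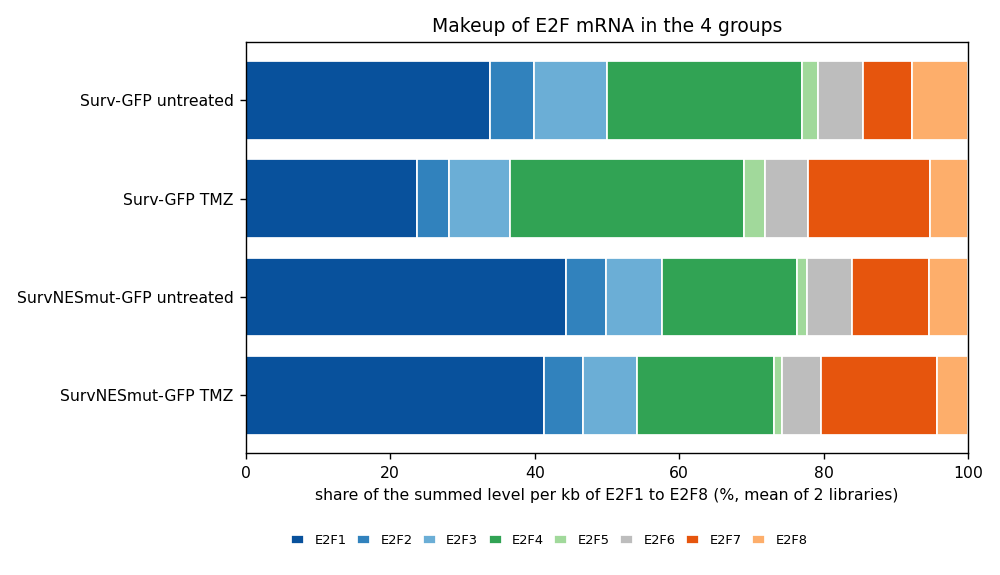
Share (%, horizontal axis, from 0 to 100) of each E2F gene in the summed level per kb of E2F1 to E2F8, as the mean of the 2 libraries of each of the 4 groups (vertical axis). The blue segments of E2F1, E2F2 and E2F3 summed to 36.6% in Surv-GFP cells with TMZ and, rounded, to between 50.0% and 57.7% in the other 3 groups.

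The shape of each profile over the 8 libraries was compared as the root mean square difference in log2 CPM after centring each gene, a description with no test. Among the 10 genes E2F1 and FOXM1 were most alike (0.130), followed by E2F3 and E2F6 (0.144) and by E2F2 and FOXM1 (0.157). Over all tested genes, E2F7 was nearest to GPC1 (0.0823), MTHFD1L (0.0923) and DDB2 (0.0978), and these were also the 3 nearest by group means. The nearest genes to E2F1 were NUP107 (0.0505), CUL4B (0.0543) and RBL1 (0.0674), and to FOXM1 UACA (0.0311), WDR76 (0.0339) and NCAPD3 (0.0429). For E2F5 they were SLU7 (0.0544), PYGB (0.0594) and ATP6V0A1 (0.0602), none of which was among its 3 nearest genes by group means. The spans of the group means of these 4 members, on the log2 scale, were 1.72 for E2F7, 1.19 for E2F1, 0.99 for FOXM1 and 0.96 for E2F5.

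The binding partners were counted next. Of 10 partner genes, 2 rose and 7 fell with TMZ in Surv-GFP cells, and 1 rose and 2 fell in SurvNESmut-GFP cells. Of all tested genes 30.1% rose and 28.9% fell in Surv-GFP cells and 18.6% and 19.1% in SurvNESmut-GFP cells, so the count of 7 stands above its background and those in SurvNESmut-GFP cells do not. The effect was higher in SurvNESmut-GFP cells (background 16.6% higher and 20.2% lower) for 4 and lower for 2, and the 2 became 1 without any 1 untreated library or Surv-GFP TMZ replicate a. The DP proteins, which E2F1 to E2F6 need to bind DNA, were among the 4. TFDP1 fell by 0.58 and TFDP2 by 0.62 on the log2 scale in Surv-GFP cells (adjusted p = 7.71e-08 and 1.01e-06), against -0.01 and -0.06 in SurvNESmut-GFP cells, with differences of 0.57 (adjusted p = 1.51e-05) and 0.56 (adjusted p = 0.000360). The pocket protein RBL1, itself an E2F target, fell by 0.41 in Surv-GFP cells (adjusted p = 4.25e-05) against 0.09 in SurvNESmut-GFP cells, a difference of 0.50 (adjusted p = 0.000270). RBL2 fell in both clones, by 0.65 (adjusted p = 5.04e-08) and 0.39 (adjusted p = 5.87e-05).

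RB1 had a log2 fold change of -0.14 in Surv-GFP cells (adjusted p = 0.0260) and of -0.03 in SurvNESmut-GFP cells. Its call was lost without Surv-GFP untreated replicate a (adjusted p = 0.0660), without Surv-GFP untreated replicate b (adjusted p = 0.150) and without Surv-GFP TMZ replicate a (adjusted p = 0.142). LIN37, a MuvB subunit needed for repression by DREAM, rose by 1.22 on the log2 scale in Surv-GFP cells (adjusted p = 4.79e-07) with a value of 0.32 in SurvNESmut-GFP cells (difference -0.90, adjusted p = 0.00142). LIN54, the subunit that binds CHR, rose in both clones, by 0.60 (adjusted p = 4.91e-06) and 0.30 (adjusted p = 0.00491). LIN9 fell by 0.33 in Surv-GFP cells (adjusted p = 0.00596) against -0.06, and RBBP4 fell in both, by 0.45 (adjusted p = 6.43e-07) and 0.28 (adjusted p = 0.000216). LIN52 had values of 0.24 and -0.17 that did not pass (adjusted p = 0.106 and 0.299). Its value in SurvNESmut-GFP cells depended on 1 library, as it was -0.36 without SurvNESmut-GFP TMZ replicate b. In the same fit the LIN52 effects differed by -0.60, and the clones with TMZ by -0.47. Between the clones, 4 partners were higher and 2 lower in SurvNESmut-GFP cells without TMZ (background 34.7% and 29.4%), and 5 were higher and 1 lower with TMZ (background 34.5% and 34.7%), and the 1 became 2 without SurvNESmut-GFP TMZ replicate b.

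Upstream of E2F stand the cyclins, their kinases and the kinase inhibitors. Of 15 such genes 11 were tested, and CDKN2A, CDKN2B and CDKN2C had no read in any library. With TMZ 2 rose and 6 fell in Surv-GFP cells (background 30.1% and 28.9%), and 4 rose and 2 fell in SurvNESmut-GFP cells (background 18.6% and 19.1%). CDKN1A rose in both, by 3.52 on the log2 scale (adjusted p = 1.02e-15) and by 1.96 (adjusted p = 4.23e-12), a difference of -1.56 (SE 0.10, adjusted p = 5.06e-09). CDKN1B, the p27 gene, fell by 0.85 in SurvNESmut-GFP cells (adjusted p = 1.10e-07) against -0.12 in Surv-GFP cells (difference -0.73, adjusted p = 2.27e-05). CCND1, cyclin D1, rose by 0.62 in Surv-GFP cells (adjusted p = 4.81e-08) and less in SurvNESmut-GFP cells, by 0.23 (adjusted p = 0.00231). The latter value was 0.17 without SurvNESmut-GFP untreated replicate a, where the call was lost. The CCND1 effects differed by -0.38 (adjusted p = 0.000726). Mean CCND1 levels without and with TMZ were 382 and 584 CPM in Surv-GFP cells and 1443 and 1693 CPM in SurvNESmut-GFP cells.

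The kinase gene CDK2 fell by 0.28 in Surv-GFP cells (adjusted p = 0.000154) against 0.10 in SurvNESmut-GFP cells (difference 0.38, adjusted p = 0.000597). Its partner CCNE2 fell by 0.55 in Surv-GFP cells (adjusted p = 0.000235) against -0.01 (difference 0.54, adjusted p = 0.00732, and 0.0516 without Surv-GFP untreated replicate b). For CCND3 the values were -0.22 and 0.06, and the difference of 0.28 (adjusted p = 0.0134) was lost without Surv-GFP untreated replicate a (adjusted p = 0.0786) or Surv-GFP TMZ replicate a (adjusted p = 0.0545). In all, the TMZ effect was higher in SurvNESmut-GFP cells for 6 and lower for 3 of the 11 genes (background 16.6% and 20.2%), and the 6 became 2 without Surv-GFP TMZ replicate a and 3 without Surv-GFP untreated replicate a, Surv-GFP untreated replicate b or SurvNESmut-GFP untreated replicate a. Between the clones, 4 were higher and 4 lower without TMZ (background 34.7% and 29.4%), and 6 were higher and 4 lower with it (background 34.5% and 34.7%). The 4 lower became 2 without SurvNESmut-GFP untreated replicate a or b.

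Of 28 G1/S genes, which E2F factors are known to drive, 22 fell and 1 rose with TMZ in Surv-GFP cells (median log2 fold change -0.39), where 28.9% of all tested genes fell and 30.1% rose. In SurvNESmut-GFP cells 10 fell and 6 rose (median 0.04, background 19.1% and 18.6%), and the 10 became 6 without untreated replicate b and the 6 became 3 without untreated replicate a. The effect was higher in SurvNESmut-GFP cells for 22 genes and lower for 1 (background 16.6% and 20.2%), with a median difference of 0.39 against -0.00103 over all tested genes. The replication helicase gene MCM2 fell by 0.96 in Surv-GFP cells (adjusted p = 8.90e-11) and by 0.33 in SurvNESmut-GFP cells (adjusted p = 3.93e-05), a difference of 0.62 (adjusted p = 3.33e-06). MCM3 fell by 0.74 (adjusted p = 1.22e-09) and by 0.23 (adjusted p = 0.000971), a difference of 0.50 (adjusted p = 2.41e-05). CLSPN, a replication checkpoint mediator, fell by 0.43 in Surv-GFP cells (adjusted p = 2.23e-05) but rose by 0.24 in SurvNESmut-GFP cells (adjusted p = 0.00299, and 0.0678 without untreated replicate a), a difference of 0.67 (adjusted p = 1.41e-05). The 1 gene that rose in Surv-GFP cells was CDC6, a licensing factor, by 0.71 (adjusted p = 7.52e-08), against 0.15 in SurvNESmut-GFP cells (difference -0.55, adjusted p = 0.000146). Without TMZ 22 of the 28 were higher and 2 lower in SurvNESmut-GFP cells (background 34.7% and 29.4%), and with TMZ 27 were higher and 0 lower in edgeR's test (background 34.5% and 34.7%), and also 0 lower at an unadjusted p under 0.05 and in the DESeq2 Wald test, or 1 lower (CDC6) without Surv-GFP TMZ replicate b (adjusted p = 0.0383) or SurvNESmut-GFP TMZ replicate b (adjusted p = 0.0219). The 2 lower became 1 without Surv-GFP untreated replicate b or SurvNESmut-GFP untreated replicate a.

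Of 28 G2/M genes, which MuvB with MYBL2 and FOXM1 is known to drive, 27 fell in Surv-GFP cells and all 28 in SurvNESmut-GFP cells, with median log2 fold changes of -1.30 and -0.85, where 28.9% and 19.1% of all tested genes fell. The effect was higher, that is the fall was smaller, in SurvNESmut-GFP cells for 17 genes and lower for 1 (median difference 0.34, background 16.6% and 20.2%). KIF20A, a kinesin of cytokinesis, fell by 3.30 (adjusted p = 2.29e-16) and 2.12 (adjusted p = 1.54e-13), a difference of 1.18 (adjusted p = 1.01e-08). Cyclin A2 (CCNA2) fell by 1.59 (adjusted p = 1.96e-12) and 0.71 (adjusted p = 4.07e-08), a difference of 0.88 (adjusted p = 5.05e-07). The kinetochore gene CENPF fell by 1.59 (adjusted p = 3.85e-13) and 0.82 (adjusted p = 4.65e-09), a difference of 0.77 (adjusted p = 6.59e-07). The exception was the phosphatase gene CDC25B, at 0.01 in Surv-GFP cells (adjusted p = 0.917), while it fell by 0.33 in SurvNESmut-GFP cells (adjusted p = 5.77e-05). Between the clones 25 were higher and 1 lower in SurvNESmut-GFP cells without TMZ (background 34.7% and 29.4%), and 25 were higher and 2 lower with TMZ (background 34.5% and 34.7%). The 2 lower became 1 without Surv-GFP TMZ replicate a or SurvNESmut-GFP TMZ replicate a.

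**Figure D4:**
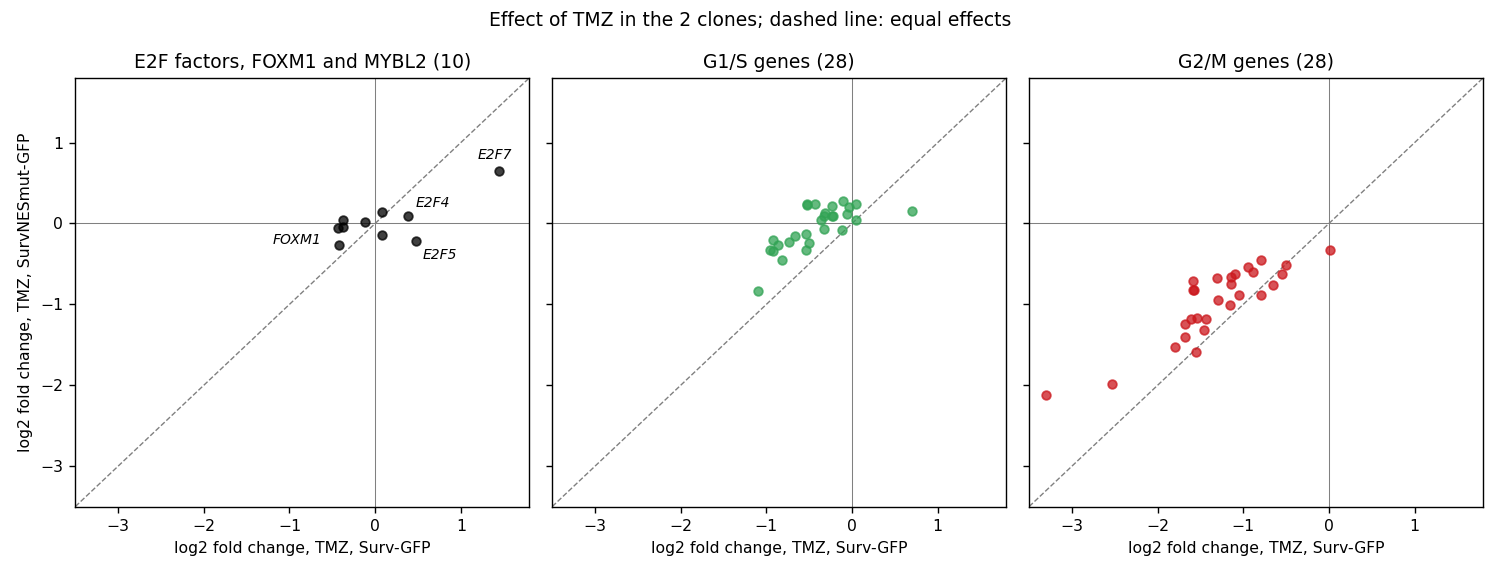
Log2 fold change with TMZ in Surv-GFP cells (horizontal axis) against that in SurvNESmut-GFP cells (vertical axis), with 1 point per gene, for the 10 factors (left), the 28 G1/S genes (middle) and the 28 G2/M genes (right); the dashed line marks equal effects. Points of the G2/M list lay below 0 in SurvNESmut-GFP cells for all 28 genes, and the 10 factors lay on both sides of 0.

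Of the 7 genes of the Polycomb complex in which E2F6 is found, 2 rose and 2 fell in Surv-GFP cells (background 30.1% and 28.9%) and 1 rose and 1 fell in SurvNESmut-GFP cells (background 18.6% and 19.1%), counts close to those shares. The effect was higher in SurvNESmut-GFP cells for 2 of the 7 and lower for 2 (background 16.6% and 20.2%). MAX rose by 0.57 on the log2 scale in Surv-GFP cells (adjusted p = 1.99e-07) and RING1 by 0.54 (adjusted p = 1.65e-07), against 0.19 (adjusted p = 0.0307) and -0.08 in SurvNESmut-GFP cells, with differences of -0.39 (adjusted p = 0.00209) and -0.61 (adjusted p = 1.08e-05). The MAX call in SurvNESmut-GFP cells was lost without untreated replicate b (adjusted p = 0.305) or TMZ replicate b (adjusted p = 0.119) of that clone. CBX3 fell in both clones, by 0.79 (adjusted p = 2.95e-09) and 0.49 (adjusted p = 2.54e-06), with a difference of 0.30 (adjusted p = 0.00642). RNF2 fell by 0.49 in Surv-GFP cells (adjusted p = 5.19e-05) against -0.18. MGA, PCGF6 and L3MBTL2 had values from -0.13 to 0.13 that did not pass with TMZ in either clone, although L3MBTL2 passed in SurvNESmut-GFP cells without TMZ replicate b (adjusted p = 0.0175).

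Among the relatives of MYBL2 and FOXM1, MYBL1 fell by 0.31 in Surv-GFP cells (adjusted p = 0.000492) and rose by 0.37 in SurvNESmut-GFP cells (adjusted p = 0.000119), a difference of 0.68 (adjusted p = 1.45e-05). MYB was low throughout, with group means from 1.12 CPM (SD 0.688, Surv-GFP with TMZ) to 3.85 CPM (untreated SurvNESmut-GFP). Its clone difference with TMZ was 1.09 on the log2 scale with all libraries, but 0.59 without Surv-GFP TMZ replicate b. MYB fell by 1.57 in Surv-GFP cells (adjusted p = 0.000197), and in SurvNESmut-GFP cells its value of -0.66 (adjusted p = 0.0444) lost its call without any 1 of the untreated libraries or of the SurvNESmut-GFP TMZ libraries, with adjusted p of 0.0603 to 0.220. FOXO1 fell by 0.63 in SurvNESmut-GFP cells (adjusted p = 0.000520) against -0.21 in Surv-GFP cells (adjusted p = 0.0770, and 0.00735, 0.0399 and 0.0394 without Surv-GFP TMZ replicate b, SurvNESmut-GFP TMZ replicate a or SurvNESmut-GFP TMZ replicate b). FOXO3 fell by 0.28 in Surv-GFP cells (adjusted p = 0.000862), and its value of -0.17 in SurvNESmut-GFP cells (adjusted p = 0.0238) lost its call without SurvNESmut-GFP untreated replicate a (adjusted p = 0.0932), untreated replicate b (adjusted p = 0.0977) or TMZ replicate a (adjusted p = 0.215). In all 4 relatives together, 3 fell and 0 rose in Surv-GFP cells (background 28.9% and 30.1%) and 3 fell and 1 rose in SurvNESmut-GFP cells (background 19.1% and 18.6%), where the 3 became 1 without SurvNESmut-GFP untreated replicate a, untreated replicate b or TMZ replicate a, and both MYB and MYBL1 were higher in SurvNESmut-GFP cells with TMZ (log2 fold change 1.09, adjusted p = 0.00581, and 0.83, adjusted p = 4.32e-09).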

How the data were processed

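RNA of 8 samples of LN229 clones, in 4 groups of 2 named from the labels, was sequenced by the authors. The deposited table gives raw counts of reads, made by the authors, as integers for each gene symbol; STAR 2.5.0b, Cufflinks 2.2.1 and edgeR stand in the submitters' processing notes, while no source used here gives the genome build, annotation or strand setting. Rows for reads without a gene (11.2% to 14.3% of all reads in the table) or with an ambiguous one (1.19% to 1.28%) were left out. The authors' 5 comparison tables (log2 fold change, average log2 CPM, F, p-value, FDR) were not used.

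The tests used edgeR 4.0.16 and limma 3.58.1 under R 4.3.3: TMM, filterByExpr, one model of 4 group means, and the quasi-likelihood F test in its legacy form, called at a Benjamini-Hochberg adjusted p of 0.05. The scripts were tested on simulated data. The replicate letters may be separate cultures or technical duplicates, which the labels do not say. The paper describes both independent biological replicates and technical duplicates for this sequencing, but does not tie either to the letters. The p-values thus measure only the spread between these samples. Alternatives were DESeq2 1.42.0 (size factors, Wald test), library size only, other filters, other edgeR settings, a replicate block, fits of only the compared libraries, and each library left out. Intervals cover sampling between libraries only.

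Members and gene lists were chosen with earlier results of these data known. All 10 members, their partners, E2F6 complex genes and relatives are named, and from the upstream, G1/S and G2/M lists the 3 genes with the smallest p per direction among calls in the difference of TMZ effects. For the 4 members of widest span the 3 nearest genes are named. BIRC5 was kept out of the lists because it is the transgene.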

Additional observations from a re-analysis of the deposited data

Results flagged for a closer look

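For 6 of the 10 factors the TMZ effect in SurvNESmut-GFP cells minus that in Surv-GFP cells passed the test of the difference itself (edgeR, adjusted p below 0.05). On the log2 scale it was 0.34 for E2F1, 0.42 for E2F2, 0.38 for FOXM1, -0.30 for E2F4, -0.70 for E2F5 and -0.80 for E2F7.

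In the partner, upstream, G1/S, G2/M, E2F6 complex and relative lists, with BIRC5, 27 further genes that the report names also passed this test. Cell type markers were not counted here. Among the partners the differences were 0.50 for RBL1, 0.26 for RBL2, 0.57 for TFDP1, 0.56 for TFDP2, -0.90 for LIN37 and -0.30 for LIN54. Among cyclins, kinases and inhibitors they were -0.38 for CCND1, 0.28 for CCND3, 0.54 for CCNE2, 0.38 for CDK2, -1.56 for CDKN1A and -0.73 for CDKN1B. The G1/S genes gave -0.55 for CDC6, 0.62 for MCM2, 0.50 for MCM3 and 0.67 for CLSPN, and the G2/M genes 0.88 for CCNA2, 0.77 for CENPF, -0.33 for CDC25B and 1.18 for KIF20A. In the E2F6 complex the values were -0.39 for MAX, 0.31 for RNF2, -0.61 for RING1 and 0.30 for CBX3, and in the relatives 0.68 for MYBL1 and -0.42 for FOXO1. BIRC5, which includes the transgene, gave -1.48. Those of RBL2, LIN54, CCND3, CCNE2, RNF2 and FOXO1 lost their call when a single library was left out, RBL2 without Surv-GFP untreated replicate b (adjusted p = 0.0657), Surv-GFP TMZ replicate a (0.0880), SurvNESmut-GFP untreated replicate b (0.0986) or SurvNESmut-GFP TMZ replicate b (0.0575). LIN54 lost it at adjusted p of 0.0828 to 0.241 without either Surv-GFP untreated library, Surv-GFP TMZ replicate a or either SurvNESmut-GFP untreated library. RNF2 lost it at 0.0856 to 0.181 without Surv-GFP untreated replicate b, Surv-GFP TMZ replicate a, SurvNESmut-GFP untreated replicate b or SurvNESmut-GFP TMZ replicate a. FOXO1 lost it at 0.0658 to 0.267 without either Surv-GFP untreated library, Surv-GFP TMZ replicate b, SurvNESmut-GFP untreated replicate a or SurvNESmut-GFP TMZ replicate a.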

How the results depend on the processing

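Of the 50 member comparisons (10 genes, 5 contrasts), 40 kept their side of the threshold in all 16 or 17 alternatives. Among them were the differences of the TMZ effects for all 10 genes. None changed sign where it was called in the main fit or in the alternative. Changes of sign between values that were not called were not counted. The other 10 changed call in at least 1 alternative; the cause was not tested. In SurvNESmut-GFP cells the members raised by TMZ went from 1 to 2 with library size only, with a filter of 1 CPM in 2 libraries, with the edgeR 4 method and with a robust prior (MYBL2 added), and from 1 to 3 at most when 1 library was left out (range 1 to 3). The members lowered went from 1 to 0 with library size only and with the DESeq2 Wald test (E2F8, adjusted p = 0.0505 and 0.0811; range 0 to 1 with 1 library left out). The members lower in SurvNESmut-GFP cells without TMZ went from 1 to 2 with DESeq2 size factors, library size only, no filter and the 1 CPM filter, to 3 with only the compared libraries, and to 0 with the DESeq2 Wald test and the replicate block (range 0 to 2).

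List counts that moved by over 1.5 times were these. In the E2F6 complex, genes raised in SurvNESmut-GFP cells went from 1 to 0 with the DESeq2 Wald test and with only the compared libraries (range 0 to 1), those with a higher effect in SurvNESmut-GFP cells from 2 to 1 with the Wald test (range 1 to 3), and those higher with TMZ ranged from 2 to 4. Of the partners, those with a lower effect went from 2 to 1 with DESeq2 size factors, library size only, the 1 CPM filter and the Wald test (range 1 to 3), and those lower with TMZ ranged from 1 to 2. Of the relatives, those lowered in SurvNESmut-GFP cells went from 3 to 1 with library size only and the Wald test (range 1 to 3). Those higher without TMZ went from 2 to 1 under both scalings, both filters, the Wald test, the compared libraries alone and every left-out library (range 1 to 1). Those with a higher effect went from 1 to 2 with no filter (range 1 to 2), and those with a lower effect from 1 to 0 with both scalings, the 1 CPM filter and the Wald test (range 0 to 1). Of the upstream genes, those lower without TMZ went from 4 to 2 (range 2 to 5) and those with a higher effect from 6 to 3 (range 2 to 5), both with the Wald test. G2/M genes lower with TMZ went from 2 to 1 with only the compared libraries (range 1 to 2). G1/S genes raised in SurvNESmut-GFP cells ranged from 3 to 7, those lowered there from 6 to 10, those lower without TMZ from 1 to 2 and those lower with TMZ from 0 to 1.

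Deviations of replicates with the same letter were little correlated between groups over all tested genes (-0.0447 to 0.0752). These values cannot tell whether equal letters mark shared handling. With the replicate block E2F5 lost its call without TMZ (adjusted p = 0.0522), and no other member changed its call. Longest-transcript lengths kept the order of mean levels, and nearest genes by group means shared 3 of 3 for E2F7, 2 for E2F1, 2 for FOXM1 and 0 for E2F5. With 2 libraries per group, the clone differences of E2F3 and E2F6 with TMZ were not called by the DESeq2 Wald test (adjusted p = 0.106 and 0.150).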
